A study of Mus musculus with 8 samples.

Results

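The Elovl genes encode the fatty acid elongases, and their expression was followed in dorsal skin of wild-type mouse embryos at 3 stages. The family is represented by the 19 probesets whose only gene symbol is 1 of the 7 names Elovl1 to Elovl7, out of 34945 probesets with a single symbol. Elovl7 has 6 of them, Elovl1 has 4, Elovl6 has 3, Elovl4 and Elovl5 have 2 each, and Elovl2 and Elovl3 have 1 each. The arrays are 2 of embryonic day 14.5 (E14.5), 3 of E16.5 and 3 of E18.5, each hybridised with dorsal skin RNA of the wild-type genotype, with no treatment named. The labels state no strain, sex, litter or number of animals per sample. A p-value therefore sets a stage difference only against the spread of these samples, which may be technical. In such bulk samples, fewer cells of a type and less RNA per cell cannot be told apart. The labelled tissue carried its defining keratins: Krt5, a keratin of the basal layer, gave 5932 and 7745 on the E14.5 arrays, 16163 to 18903 on those of E16.5 and 19398 to 22701 on those of E18.5.

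Values are signal intensities on a linear scale. Tests and differences use log2(signal + 16), and an adjusted p is from limma's moderated test with Benjamini-Hochberg adjustment over all 34945 probesets, called under 0.05. A signal counts as above background when it exceeds, on the same array, the 95th percentile of the 80 probesets for odorant and pheromone receptors (olfactory and vomeronasal families). That level lay at 33.6 to 53.2 at E14.5 and E16.5 and at 62.2 to 92.2 at E18.5. The E14.5 arrays stood apart in their controls, with a beta-actin 3′ over 5′ ratio of 6.50 and 6.91 against 1.11 to 1.37 on the other 6 arrays. No label says how these arrays were prepared. In any comparison with E14.5, stage and what sets these ratios cannot be told apart, and E18.5 against E16.5 is given first. Those stages differed in the same ratio too, by less (1.35 to 1.37 at E18.5 and 1.11 to 1.14 at E16.5). The Gapdh ratio went the other way between them, at 0.692 to 0.8101 at E18.5 and 0.8402 to 0.869 at E16.5, and was 2.96 and 3.03 at E14.5. The part of these ratios in the results was not tested.

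Elongases of this family catalyse the condensation step that starts each round of fatty acid chain lengthening in the endoplasmic reticulum. A reductase, a dehydratase and a second reductase shared by all elongases complete the round. In the epidermis, Elovl1 makes saturated and monounsaturated very long chains and Elovl4 the still longer ones that go into the acylceramides of the water barrier. Mice that lack either enzyme die after birth with a defective barrier. Elovl6 lengthens palmitate in lipid-making tissues such as liver and fat, and Elovl3 is known from sebaceous gland, hair follicle and brown fat. Elovl2 and Elovl5 lengthen polyunsaturated chains, and Elovl7 acts on saturated ones.

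The start regions are shown for the 3 genes with at least 1 probeset called lower in E18.5 than in E16.5. Each of these genes also had a probeset that was not called. Most Elovl7 probesets had a negative difference too, but none was called, and its region is not shown. Each run is the 250 bases before an annotated start from RefSeq (GRCm38.p6), in the direction of transcription. Capitals mark any match, on either strand, to 1 of 5 motifs, and overlapping matches run together. They are the E-box CACGTG, the promoter element CCAAT, the GC box written as GGGCGG, the TATA box written as TATAAA, and the grainyhead motif AACCGGTT.
Elovl1, chr4:118427843-118428092, plus strand: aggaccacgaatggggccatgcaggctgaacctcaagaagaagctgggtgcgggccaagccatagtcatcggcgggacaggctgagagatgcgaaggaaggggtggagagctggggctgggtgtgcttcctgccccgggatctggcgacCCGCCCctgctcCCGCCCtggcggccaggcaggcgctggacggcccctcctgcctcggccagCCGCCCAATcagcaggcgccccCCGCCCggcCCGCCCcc
Elovl4, chr9:83806306-83806555, minus strand: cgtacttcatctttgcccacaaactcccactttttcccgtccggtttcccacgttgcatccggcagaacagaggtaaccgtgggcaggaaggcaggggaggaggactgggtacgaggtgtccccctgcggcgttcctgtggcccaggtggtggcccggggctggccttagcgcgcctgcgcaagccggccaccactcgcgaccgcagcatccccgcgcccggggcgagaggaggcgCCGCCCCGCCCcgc
Elovl6, chr3:129532136-129532385, plus strand: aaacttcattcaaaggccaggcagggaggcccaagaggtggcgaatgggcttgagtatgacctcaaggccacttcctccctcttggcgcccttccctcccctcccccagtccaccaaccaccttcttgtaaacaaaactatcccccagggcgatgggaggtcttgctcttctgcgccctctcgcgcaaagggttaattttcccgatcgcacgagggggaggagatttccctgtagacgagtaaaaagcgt

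Elovl1 held 5 GC boxes and 1 CCAAT in the first of its 2 annotated starts, with 1 GC box overlapping the CCAAT. Elovl4 held 2 overlapping GC boxes, and Elovl6 held none of the 5 motifs. A GC box occurs in 32.7% and CCAAT in 33.8% of 32851 such regions of the mouse table, while E-box and TATAAA occur in 6.02% and 12.4%. The grainyhead motif in these exact letters occurs in 0.116%. Of the whole family, 6 genes matched this table, and Elovl3 did not.

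**Figure D1:**
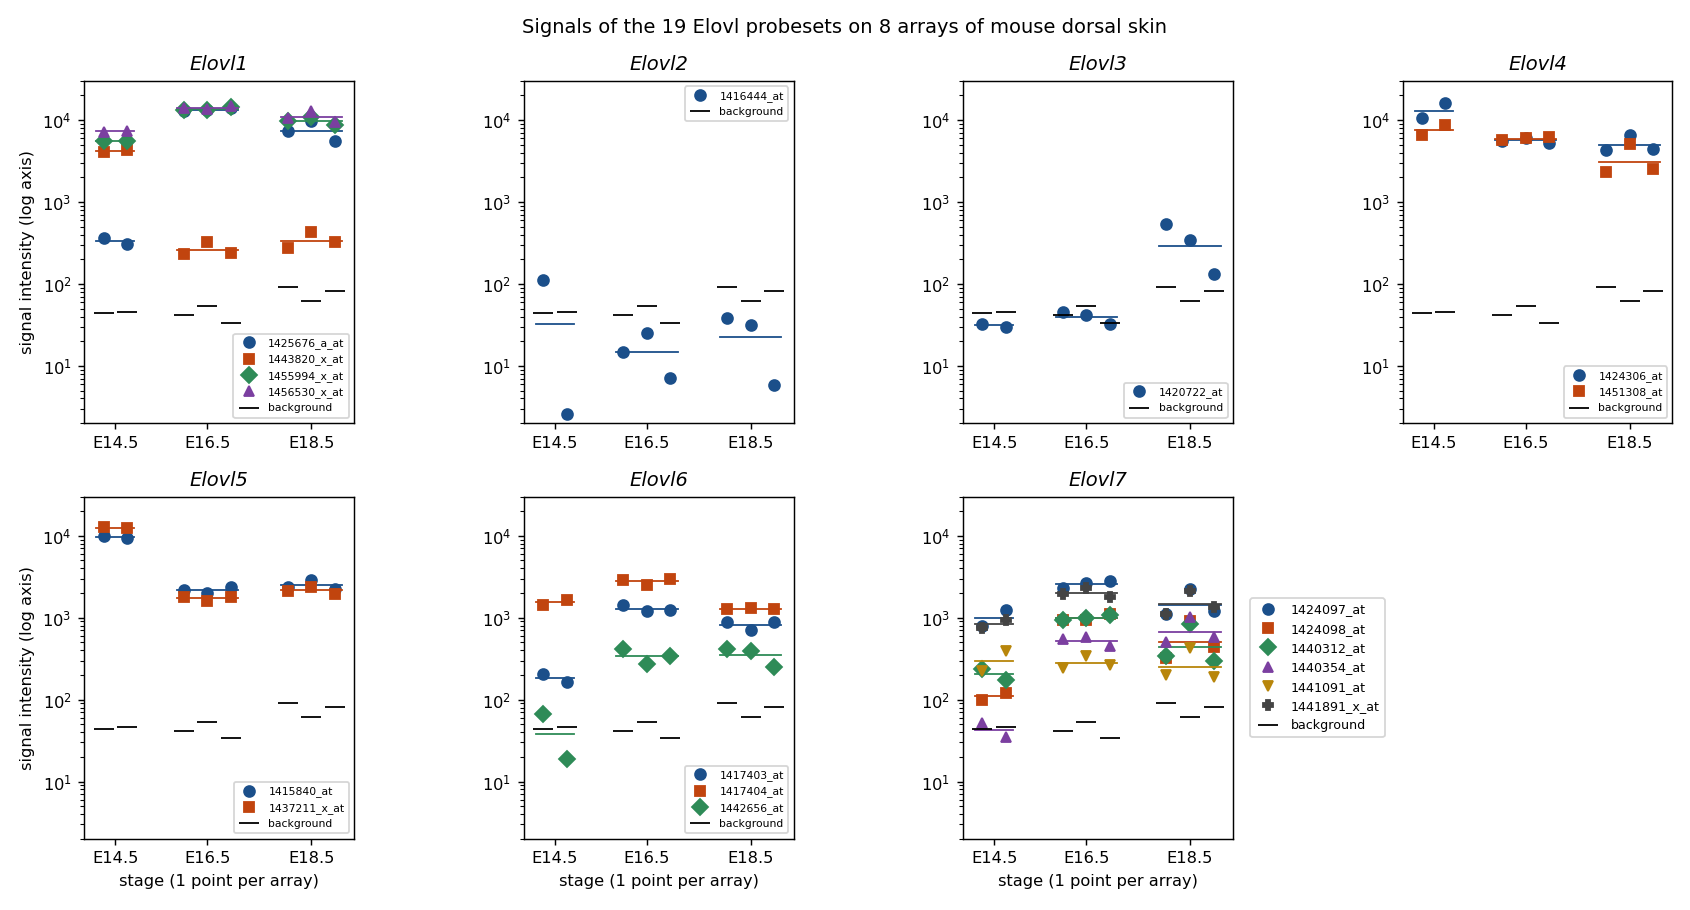
Signal intensity (log axis) of every Elovl probeset on each of the 8 arrays, by gene and stage. Points are arrays, horizontal lines are stage means on the log2(signal + 16) scale, and black ticks are the background of each array. Elovl3 reached 132 to 542 at E18.5, above background on each array of that stage, and Elovl2 was above background on 1 of the 8 arrays.

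From E16.5 to E18.5 the family moved in both directions. Elovl3 rose, probesets of Elovl1, Elovl4 and Elovl6 fell, and Elovl2, Elovl5 and Elovl7 had no probeset past the test. In counts, 1 of 19 probesets was higher in E18.5, against 6.27% of all probesets tested. In the other direction, 5 of 19 were lower, against 4.44%. The arrays of the 2 stages did not overlap for 11 of the 19, against 36.8% of all probesets. The median log2 difference of the 19 was −0.37, and that of all probesets 0.12, which became 0.00 under quantile normalization and 0.01 under median centring. Probesets annotated to 1 gene are not counted as independent, although some disagree, so the falls amount to 3 genes. Taken by the probeset with the highest mean of each gene, as for the gene lists below, only Elovl6 fell and only Elovl3 rose. The median log2 difference of these 7 probesets was −0.17.

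Among the elongases of sebaceous and fat tissue, Elovl3 had the largest difference of the family. Its single probeset gave 542, 345 and 132 at E18.5, against 45.7, 41.8 and 32.2 at E16.5. All 3 E18.5 signals were above background and 1 of the 3 E16.5 signals was, so the stages did not overlap and the difference is a bound. Elovl3 was at least 5.20-fold higher in E18.5 than in E16.5 (measured log2 difference 2.48 ± 0.43 SE, n = 3 each, adjusted p = 0.00618 by limma). It was called in all 18 other settings in which it was tested, with adjusted p from 0.00121 to 0.0359.

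Elovl6, grouped with Elovl3 as an enzyme of lipid-making tissue, went the other way. Its probeset with the highest mean, 1417404_at, gave 1272, 1301 and 1268 at E18.5, against 2897, 2486 and 2966 at E16.5. The E18.5 arrays lay within a narrow band far below the lowest E16.5 array. Elovl6 was 2.15-fold lower by this probeset (log2 difference −1.11 ± 0.12 SE, n = 3 each, adjusted p = 0.000628 by limma), and called in all 18 other settings tried, with adjusted p from 0.000538 to 0.0471. A second probeset, 1417403_at, gave 892, 702 and 881 at E18.5, against 1422, 1200.1 and 1235 at E16.5. It was 1.55-fold lower (log2 −0.63 ± 0.16, adjusted p = 0.0305), a call kept in 11 of 16 other settings and lost without any 1 of the E16.5 arrays, without E18.5 replicate 2 and with no variance trend (adjusted p from 0.0696 to 0.134). The third Elovl6 probeset, 1442656_at, showed no such difference, with 414, 393 and 252 at E18.5, against 415, 273 and 345 at E16.5 (log2 0.02 ± 0.33, adjusted p = 0.971). The probesets of Elovl6 therefore disagree, and their mean gave a log2 difference of −0.57 (adjusted p = 0.0471).

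Of the barrier elongases, Elovl1 fell by 2 of its 4 probesets. Probeset 1425676_a_at gave 7272, 9759 and 5556 at E18.5, against 12878, 13420.4 and 14154 at E16.5. It was 1.84-fold lower (log2 −0.88 ± 0.18 SE, n = 3 each, adjusted p = 0.0134 by limma), but the call was lost when replicate 2 of E16.5 was left out (adjusted p = 0.0527), when replicate 3 was (0.0646) and with no variance trend (0.0562). Probeset 1455994_x_at gave 9745, 11034 and 8701 at E18.5, against 13185, 13363 and 14493 at E16.5. The difference was −0.48 ± 0.11 on the log2 scale (adjusted p = 0.0202), lost without any 1 of the E16.5 arrays (adjusted p from 0.0639 to 0.102) and with no variance trend (adjusted p = 0.1003). The brightest Elovl1 probeset, 1456530_x_at, had a smaller difference in the same direction that did not pass (log2 −0.37 ± 0.12, adjusted p = 0.0726), although its stages did not overlap and it was called without E18.5 replicate 2 (adjusted p = 0.0244; 0.0106 to 0.232 over its 18 settings). The fourth, 1443820_x_at, gave 277, 427 and 329.6 at E18.5, against 233, 323 and 240.3 at E16.5, with overlapping arrays (log2 0.35 ± 0.19, adjusted p = 0.266). In the array maker's naming, x_at marks probesets with probes that can also bind other sequences.

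Elovl4, the enzyme of the longest chains, had 1 of 2 probesets past the test. Probeset 1451308_at gave 2357, 5048 and 2507 at E18.5, against 5646, 5982 and 6198 at E16.5. Replicate 2 of E18.5 lay close under the E16.5 arrays, and the other two lay far below them. This probeset was 1.91-fold lower (log2 −0.93 ± 0.25 SE, n = 3 each, adjusted p = 0.0391 by limma). The call is weak, since it was kept in 7 of 16 other settings, and without E18.5 replicate 2 the log2 difference was −1.28 (adjusted p = 0.00278; 0.00278 to 0.134 over these settings). The brighter probeset, 1424306_at, gave 4357, 6492 and 4493 at E18.5, against 5629, 6063 and 5316 at E16.5. Here E18.5 replicate 2 was the highest of all 6 arrays, and the difference did not pass (log2 −0.17 ± 0.18, adjusted p = 0.586).

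**Figure D2:**
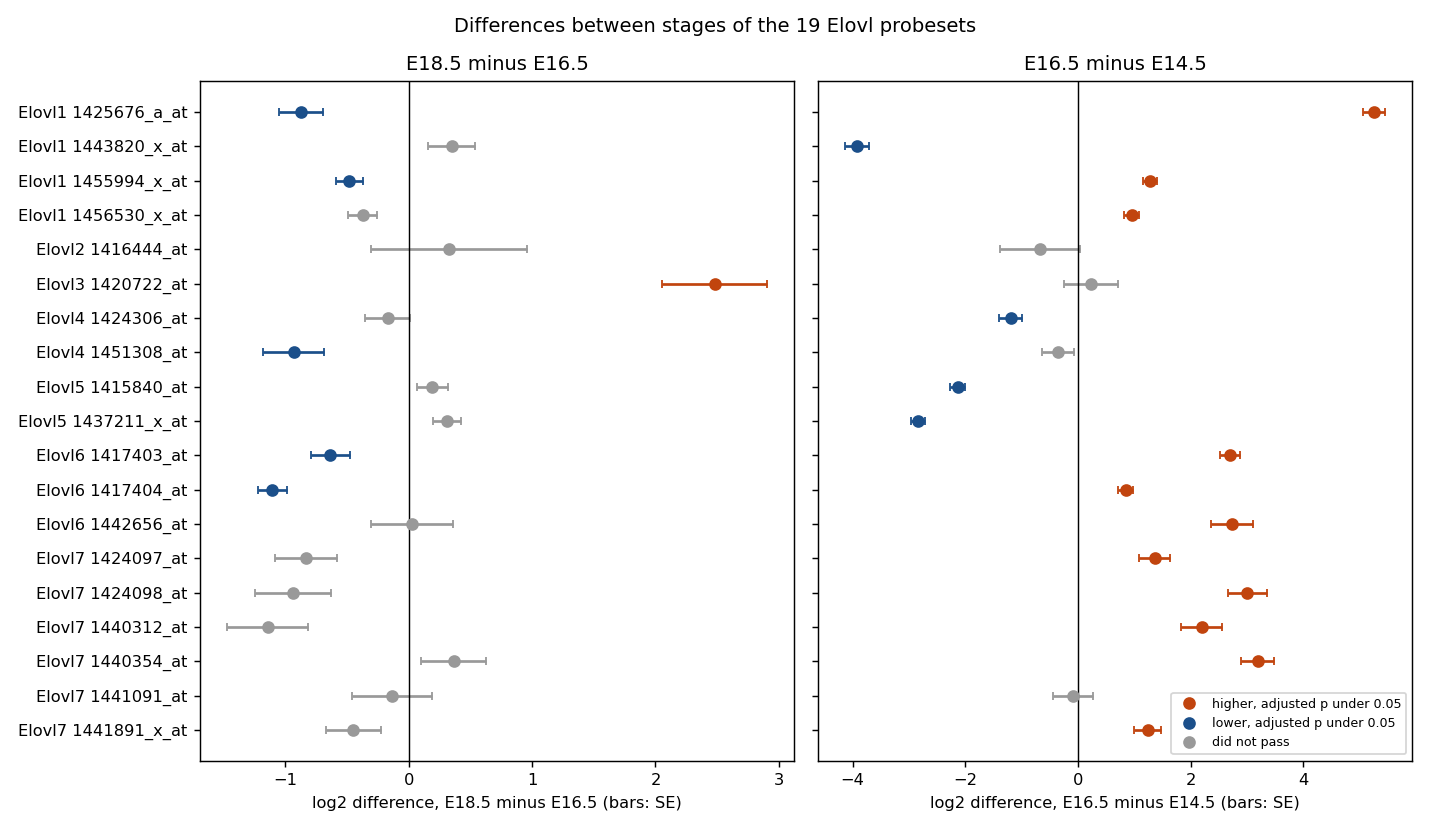
Log2 difference of each Elovl probeset, E18.5 minus E16.5 on the left and E16.5 minus E14.5 on the right. Points are limma estimates and bars are standard errors. Red marks higher, blue lower and grey not past an adjusted p of 0.05. On the left Elovl3 stands alone at 2.48 on the higher side, and on the right the probesets of Elovl1 reach both 5.26 and −3.92.

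Elovl7 had no probeset past the test between E16.5 and E18.5, yet most of its probesets had a negative difference. The brightest, 1424097_at, gave 1107, 2208 and 1206 at E18.5, against 2282, 2615 and 2835 at E16.5 (log2 −0.83 ± 0.25 SE, n = 3 each, adjusted p = 0.0601 by limma). Probeset 1440312_at gave 337, 848 and 294 at E18.5, against 929.9, 977 and 1066 at E16.5 (log2 −1.14 ± 0.33, adjusted p = 0.0513). Probeset 1424098_at gave 325, 915 and 437 at E18.5, against 943, 939.9 and 1096 at E16.5 (log2 −0.94 ± 0.31, adjusted p = 0.0788). In all 3, the stages did not overlap, but E18.5 replicate 2 sat just under the E16.5 arrays. Probeset 1441891_x_at gave 1096 to 2122 at E18.5 and 1792 to 2329 at E16.5, with overlap (log2 −0.45 ± 0.22, adjusted p = 0.217). Without E18.5 replicate 2, 4 of the 6 Elovl7 probesets were called lower, with log2 differences of −0.71 to −1.61 (adjusted p from 0.00306 to 0.0368). Few other settings called these 4. Probeset 1424097_at was called in 3 of 18, 1440312_at in 5 of 16, and 1424098_at and 1441891_x_at in 1 of 16 each. Their highest adjusted p over these settings ran from 0.167 to 0.506. Probeset 1440354_at differed from these, with 510.4, 1023 and 585 at E18.5, against 544, 580.1 and 446 at E16.5 (log2 0.36 ± 0.26, adjusted p = 0.401). The last, 1441091_at, gave 189 to 425 at E18.5 and 242 to 341 at E16.5 and overlapped (adjusted p = 0.821).

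The elongases of polyunsaturated chains had no probeset past the test. Elovl5 probeset 1437211_x_at gave 2144, 2402 and 1947 at E18.5, against 1804, 1611 and 1794 at E16.5. These arrays did not overlap, but the log2 difference of 0.31 ± 0.11 SE (n = 3 each) had an adjusted p of 0.106 by limma and was called only under quantile normalization (log2 0.43, adjusted p = 0.0378; 0.0378 to 0.384 over its 18 settings). Its other probeset, 1415840_at, gave 2216 to 2915 at E18.5 and 2015 to 2347 at E16.5, with overlap (log2 0.19 ± 0.13, adjusted p = 0.36). Elovl2 was not above background on any array of either stage, at 5.87 to 38.2 at E18.5 and 7.12 to 24.9 at E16.5, so no fold is given.

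**Figure D3:**
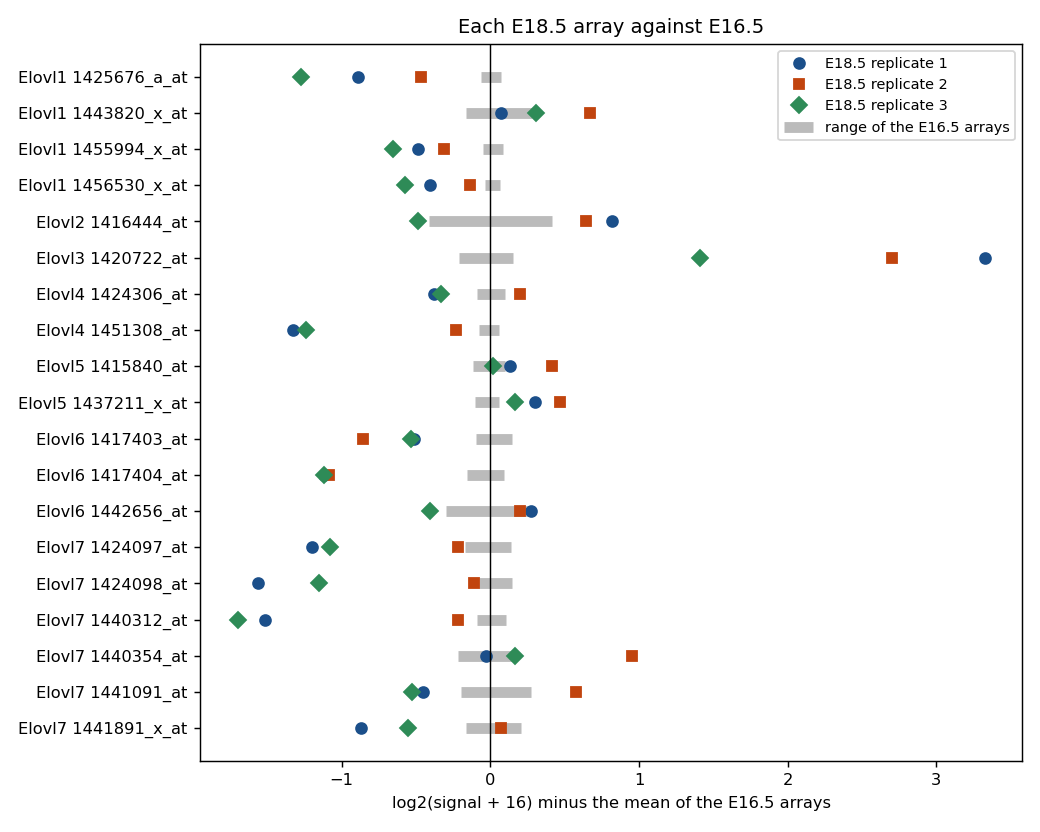
Each E18.5 array against the mean of the E16.5 arrays, on the log2(signal + 16) scale, for the 19 Elovl probesets. Symbols are the 3 E18.5 arrays and grey bars the range of the E16.5 arrays. Replicate 2 lies at −0.22 for Elovl7 probeset 1424097_at, against −1.20 and −1.08 for replicates 1 and 3, while all 3 lie between −1.08 and −1.12 for Elovl6 probeset 1417404_at.

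The spread of the E18.5 arrays differed between probesets. Their log2 standard deviation was 0.02 for Elovl6 probeset 1417404_at, the lowest of the family, and 0.19 and 0.37 for the other Elovl6 probesets. It was 0.17 to 0.41 for Elovl1, 0.32 and 0.61 for Elovl4, 0.48 to 0.81 for Elovl7 and 0.98 for Elovl3. Replicate 2 was the highest E18.5 array for 15 of the 18 Elovl probesets above background on all 3, and for 29.6% of the 21080 probesets of the table above background there. Probesets of 1 gene are not independent here either. By the probeset with the highest mean, replicate 2 was highest for Elovl1, Elovl4, Elovl5, Elovl6 and Elovl7, and not for Elovl3. Among 10 genes that use very long acyl chains in the barrier and were above background on these arrays, 6 had replicate 2 highest, against 24.3% of 11962 genes by their brightest probeset. The same held for 5 of 7 white fat genes, 3 of 6 elongation partners, 2 of 8 epidermis genes and 0 of 6 inner root sheath genes. It held for 4 of 10 genes of fatty acid synthesis and desaturation and 2 of 4 sebaceous genes. No brown fat, muscle, Schwann cell or blood gene above background on these arrays had replicate 2 highest. Leaving that array out raised the Elovl probesets called lower in E18.5 than in E16.5 from 5 to 9, while leaving out any 1 E16.5 array lowered them to 1 or 2. The comparison of the array orders was chosen after the values were seen.

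The other enzymes of the elongation round had small differences, mostly in the direction of Elovl1 and Elovl6. Of 6 partners, 2 fell and 0 rose, against 5.23% lower and 6.90% higher among the 18193 genes, each taken by its brightest probeset. Their median log2 difference was −0.37, and that of all genes 0.12. Hacd2 and Hacd3, dehydratases of the round, differed by −0.68 ± 0.165 SE and −0.40 ± 0.11 on the log2 scale (n = 3 each, adjusted p = 0.0268 and 0.0454 by limma). These calls are weak, since 13 and 7 of 18 other settings kept them and each was lost without any 1 of the E16.5 arrays. Tecr, the last reductase, was at −0.39 ± 0.12 (adjusted p = 0.0656) and Hsd17b12, the first reductase, at −0.31 ± 0.11 (adjusted p = 0.0908). Hacd1, a dehydratase known from muscle, was at 0.35 ± 0.17 (adjusted p = 0.207), and Hacd4 at −0.35 ± 0.19 (adjusted p = 0.263).

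Most genes that supply the substrate did not pass the test. Of 12 genes for fatty acid synthesis and desaturation, 2 rose and 0 fell, against 6.90% and 5.23% of all genes. Their median log2 difference was 0.04. Scd1, a stearoyl-CoA desaturase, gave 2817, 4167 and 1289.6 at E18.5, against 516, 557 and 597 at E16.5 (log2 2.12 ± 0.35 SE, n = 3 each, adjusted p = 0.00484 by limma). The second was Scd2 (log2 0.44 ± 0.12, adjusted p = 0.0483), a call kept in 4 of 18 other settings and lost under quantile normalization (log2 0.20), under median centring (log2 0.32), with any 1 E16.5 array left out and for the mean of its probesets (log2 0.03). Fasn, the fatty acid synthase, gave 2404 to 3305 at E18.5 and 2797 to 3442 at E16.5 (log2 −0.14 ± 0.14, adjusted p = 0.575), and Srebf1, a lipogenic transcription factor, had a log2 difference of −0.13 ± 0.13 (adjusted p = 0.553).

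Genes that use very long chains in the barrier fell in 4 of 11 and rose in 1, against 5.23% lower and 6.90% higher among all genes. Their median log2 difference was −0.37. Cyp4f39, which adds the terminal hydroxyl group of acylceramides, gave 910.3, 1256 and 764 at E18.5, against 2059.8, 1926 and 2197 at E16.5 (log2 −1.09 ± 0.19 SE, n = 3 each, adjusted p = 0.00607 by limma). Ugcg, the glucosylceramide synthase, had a log2 difference of −0.90 ± 0.23 (adjusted p = 0.0358), Slc27a4, a fatty acid transporter, one of −0.86 ± 0.20 (adjusted p = 0.0227) and Pnpla1, the acylceramide transacylase, one of −0.78 ± 0.22 (adjusted p = 0.048). The last 3 calls are weak: 8, 13 and 5 of 18 other settings kept them. Fa2h, a fatty acid 2-hydroxylase, rose like Elovl3, with 425, 350.1 and 197 at E18.5, against 44.2, 83.1 and 54.3 at E16.5 (log2 2.12 ± 0.38, adjusted p = 0.00758). Cers3, the ceramide synthase of the longest chains, did not pass (log2 −0.37 ± 0.25, adjusted p = 0.366).

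Markers of the tissues known for Elovl3 were set beside it. Among all 18193 genes by their brightest probeset, 6.90% rose and 5.23% fell. Of 8 sebaceous gland genes 5 were measured, and 3 rose and 1 fell. Krt79, a keratin of the follicle canal and sebaceous duct, gave 12771, 7065 and 5779 at E18.5, against 1009.7, 1606 and 1353 at E16.5 (log2 2.62 ± 0.27 SE, n = 3 each, adjusted p = 0.000554 by limma). Scd3, a desaturase of the sebaceous gland, was at least 3.02-fold higher in E18.5, and Far2, which makes fatty alcohols, fell (log2 −1.61 ± 0.26). Scd3 kept its call in 16 of 18 other settings. The summed signal of the measured sebaceous genes was 12184 to 20773 at E18.5 and 6329.9 to 7022 at E16.5. Most of this sum came from Krt79 and from Mgst1, which gave 7481, 9304 and 5990 at E18.5, against 4603, 4467 and 4583 at E16.5. Scd3 gave 250.5, 210 and 90.8 at E18.5, and Mc5r, which was not called, 75.4, 79.7 and 93.2. Awat1, Awat2 and Soat1 were not measured. All 8 of the white fat genes measured, out of 10 listed, rose, with a median log2 difference of 2.09 and a summed signal of 29669.9 to 37061 at E18.5 and 7630.4 to 9801 at E16.5. Adipoq and Retn, adipocyte hormone genes, and Cidec, a lipid droplet gene, were at least 48.4-fold, 13.1-fold and 4.58-fold higher in E18.5. Of 8 brown fat genes 2 rose and 0 fell, namely Cox7a1 and Dio2 (log2 1.64 ± 0.31 and 1.05 ± 0.21). Ucp1, which defines brown fat, was at 13.3 to 39.5 at E18.5 and 7.78 to 36.8 at E16.5, with the E18.5 signals below background. The 6 inner root sheath genes all rose, with a median log2 difference of 5.56 and a summed signal of 6697 to 34068 at E18.5 and 137 to 198 at E16.5. The keratin genes Krt25, Krt71 and Krt27 among them were at least 88.5-fold, 53.2-fold and 30.8-fold higher in E18.5. The part of all these lists in the rise of Elovl3 was not tested.

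The remaining marker lists were set beside the elongases that fell. Their counts stand against the same 6.90% higher and 5.23% lower among all genes. Of 8 epidermis genes 1 rose, Flg, a granular layer gene (log2 1.91 ± 0.41 SE, n = 3 each), and 2 fell, Ivl and Tgm1, which build the cornified envelope (log2 −1.05 ± 0.19 and −1.02 ± 0.20). Their summed signal was 161082 to 161443 at E18.5 and 117634 to 135769 at E16.5. Of 6 muscle genes 1 rose, Myh8, and 1 fell, Myog, and of 3 Schwann cell genes measured out of 5 listed, 1 rose, Pmp22. Of 5 blood genes measured out of 6 listed, 4 fell, Hbb-y, Slc4a1, Alas2 and Hba-x, with a summed signal of 1684 to 2577 at E18.5 and 4957 to 9579 at E16.5. Slc4a1, Alas2, Ivl and Myh8 kept their calls in all 18 other settings. Of the same 18, Tgm1 kept its call in 17, Flg and Pmp22 in 14, Myog in 13, Hbb-y in 12 and Hba-x in 6. Their part in the results of Elovl1, Elovl4 and Elovl6 was not tested.

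The E18.5 arrays spread these lists differently. Elovl3 lay at 0.85, 0.22 and −1.07 around its E18.5 mean on the log2 scale in replicates 1, 2 and 3. An order with replicate 1 highest and replicate 3 lowest was shared by 6 of 6 inner root sheath genes, 2 of 4 sebaceous genes (Scd3 and Krt79), 2 of 4 brown fat genes (Cidea and Dio2) and 0 of 7 white fat genes above background on these arrays, against 21.8% of 11962 genes. It was also found in 4 of 10 genes that use very long chains, 4 of 10 supply genes and 3 of 8 epidermis genes. Among elongation partners it was 1 of 6, among Schwann cell genes 1 of 3, and no muscle or blood gene had it. Krt25, an inner root sheath keratin, lay at 1.13, 0.04 and −1.17, and Adipoq at 0.43, 0.47 and −0.90. The orders rest on 3 arrays and are given as a description.

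**Figure D4:**
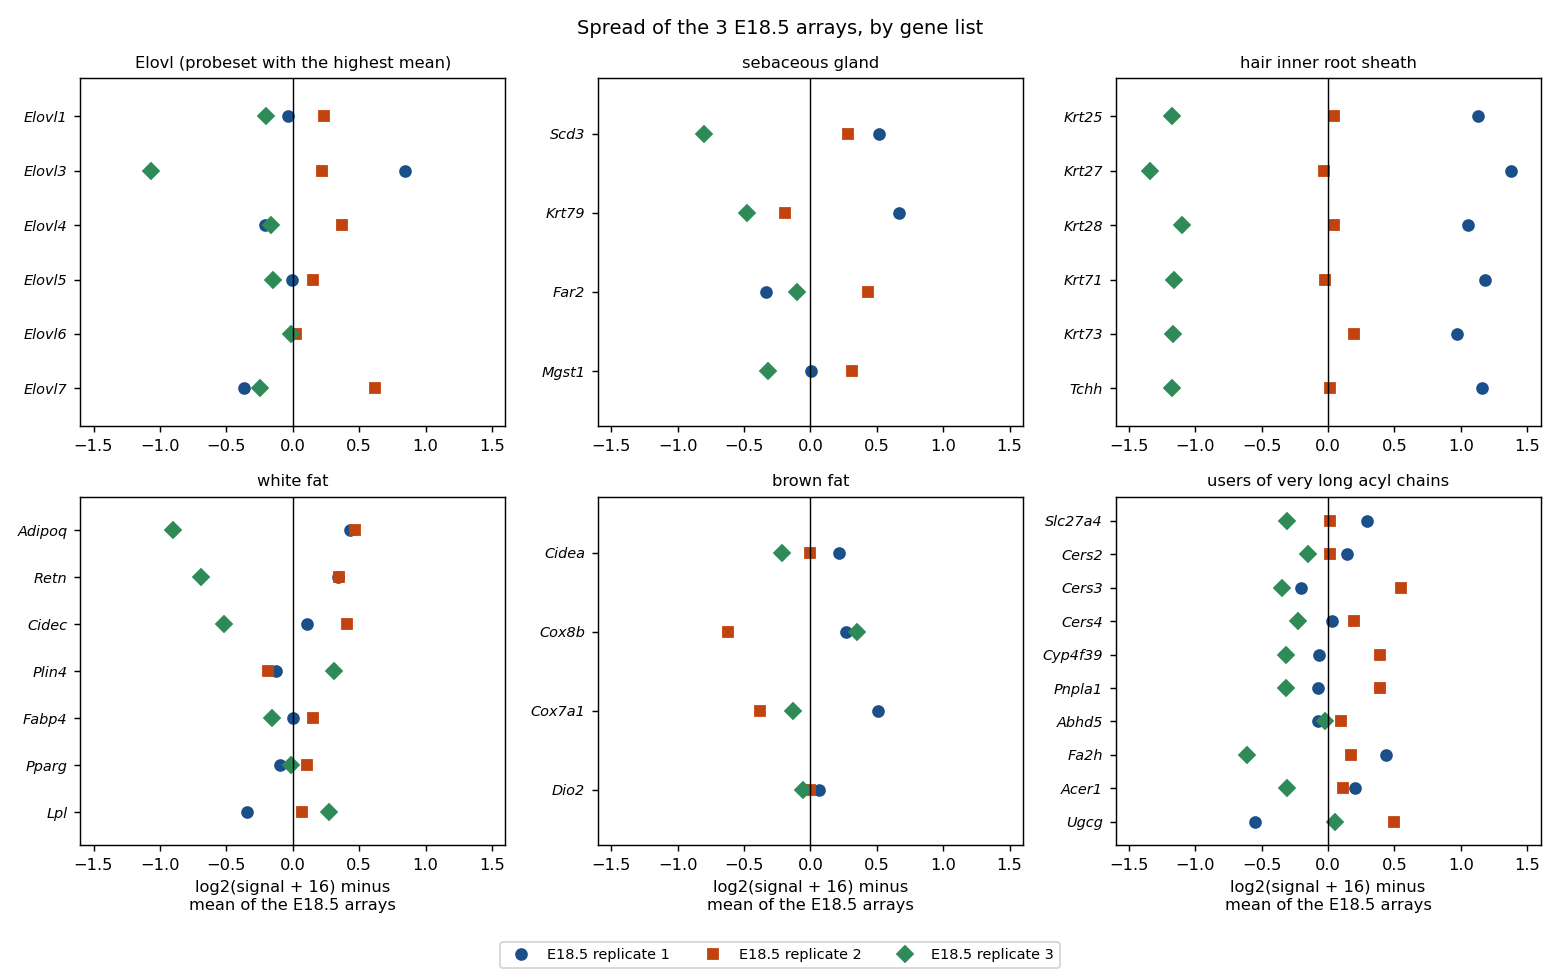
Deviation of each E18.5 array from the mean of the 3 on the log2(signal + 16) scale, for Elovl genes by their probeset with the highest mean and for listed genes above background on all 3 arrays. Symbols are replicates. Elovl3 and the 6 inner root sheath genes run from replicate 3 at the low end to replicate 1 at the high end, and Elovl7 has replicate 2 at 0.62. Scd3, Krt79, Cidea, Dio2, Slc27a4, Cers2, Fa2h and Acer1 have the same order as Elovl3.

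By profile over the 6 arrays of E16.5 and E18.5, the genes most like Elovl3 among 12415 compared were Krtap17-1, a keratin-associated protein gene of hair, at a distance of 0.45 log2 units (Pearson r = 0.993), Car6, a secreted carbonic anhydrase (0.65, r = 0.982), and Corin, a protease known from the dermal papilla (0.67, r = 0.988). Elovl6 lay nearest to Entpd7 (0.15, r = 0.994), Itpkb (0.16, r = 0.994) and Serpinb6c (0.18, r = 0.997). The genes nearest to Elovl7 were Abhd6 (0.29, r = 0.974), the connexin gene Gjb6 (0.30, r = 0.984) and Ide (0.305, r = 0.974). Elovl1 was closest to Thop1 (0.07, r = 0.992), Elovl4 to Hspa12a (0.09, r = 0.992) and Elovl5 to Frmd6 (0.05, r = 0.995). These values share arrays and stage and are a description.

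Against E14.5, whose arrays differ in their control ratios, the probesets of a gene often disagreed. Between E14.5 and E16.5, 11 of 19 Elovl probesets were higher and 4 lower, against 38.9% higher and 18.7% lower of all probesets, and 16 did not overlap between stages, against 73.7%. Median centring left 6 higher and moved the median difference of all probesets to −0.57 from 0.38. The disagreement was widest for Elovl1. Probeset 1425676_a_at gave 12878 to 14154 at E16.5, against 369 and 306 at E14.5 (log2 5.26 ± 0.20 SE, n = 3 and 2, adjusted p = 2.37e-08 by limma), and probeset 1443820_x_at gave 233 to 323 at E16.5, against 4029 and 4373 at E14.5 (log2 −3.92 ± 0.21, adjusted p = 1.25e-07). Both signs held in all 16 other settings. The other Elovl1 probesets lay between, at 1.28 ± 0.12 and 0.95 ± 0.13 on the log2 scale, and lost their calls under median centring (log2 0.33 and 0.00).

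For the barrier elongase Elovl4, E14.5 was the stage of highest signal. Probeset 1424306_at gave 5316 to 6063 at E16.5, against 10529.8 and 15971 at E14.5 (log2 −1.19 ± 0.20 SE, n = 3 and 2, adjusted p = 0.00045 by limma). Probeset 1451308_at gave 5646 to 6198 at E16.5, against 6531 and 8792 at E14.5, and did not pass (log2 −0.35 ± 0.28, adjusted p = 0.311; 0.18 under quantile normalization). Elovl5 was lower in E16.5 by both probesets, with 1611 to 1804, against 12371 and 12737 at E14.5, for 1437211_x_at (log2 −2.84 ± 0.13) and a log2 difference of −2.14 ± 0.14 for 1415840_at. Both Elovl5 falls were called in every other setting tried for them. Elovl7 was higher in E16.5 by 5 of 6 probesets, with measured log2 differences of 1.24 to 3.19, although 2 of the 5 lost the call under median centring (log2 0.41 and 0.29). The largest, for 1440354_at, is a bound of at least 8.33-fold, with 1 of 2 E14.5 arrays above background. Elovl6 was higher by all 3 probesets. Probeset 1417404_at gave 2486 to 2966 at E16.5, against 1435 and 1643 at E14.5 (log2 0.85 ± 0.13, adjusted p = 0.000221), but under median centring its difference was −0.10. The third, 1442656_at, was at least 4.99-fold higher, with 1 of 2 E14.5 arrays above background. Elovl3 was below background on both E14.5 arrays, at 32.5 and 29.9.

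Between E14.5 and E18.5, which uses the same E14.5 arrays, 10 of 19 probesets were higher and 5 lower, against 42.9% and 16.9% of all probesets, and 16 did not overlap, against 69.6%. Under median centring 4 called differences changed sign, those of Elovl1 1455994_x_at and 1456530_x_at and of Elovl7 1440312_at and 1441891_x_at. The brightest Elovl7 probeset, 1424097_at, did not pass and changed sign too (log2 0.53, and −0.54 under median centring). Elovl3 was at least 5.10-fold higher in E18.5 (measured log2 2.72 ± 0.48 SE, n = 3 and 2, adjusted p = 0.000541 by limma). Both Elovl4 probesets were lower, by log2 differences of −1.36 ± 0.20 and −1.28 ± 0.28 (adjusted p = 0.000172 and 0.00217). For Elovl6 the probesets again differed, at −0.26 ± 0.13 for 1417404_at (adjusted p = 0.114) and 2.07 ± 0.18 for 1417403_at (adjusted p = 2.78e-06). Elovl5 was lower by 5.79-fold and 3.86-fold in its probesets, and Elovl2 was above background on 1 E14.5 array alone, at 112.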

How the data were processed

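Dorsal skin RNA of 8 samples was measured on 8 arrays, grouped by the age label. RNA came from a Trizol extraction, per the labels' protocols. The authors deposited linear signal intensity values for 45101 probesets. PLIER 2.0 and Expression Console 1.1 (Affymetrix) appear in the submitters' processing notes without a stated role. Neither background correction nor normalization is described in the labels, and a shift between stages may remain. The number of arrays limits the precision.

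The tests leave out 64 control probesets, 932 annotated to several symbols and 9160 without one. limma 3.58.1 (R 4.3.3) fitted a mean per stage to log2(signal + 16) of all 8 arrays, with a variance trend. The fit was also tried on simulated arrays. These carried no general shift between stages, so that trial does not bear on such a shift. Where an array of the dimmer stage was at or below background, a fold is a bound against the higher of background and signal. Listed genes use the probeset with the highest mean of a gene. All Elovl probesets and elongation partners are named; of other lists, the 3 called genes with the largest difference are, and other members named as examples were chosen after their values were seen. Likeness is the Euclidean distance of centred profiles over 6 arrays, with 3 genes sought for each Elovl gene. The members, lists and roles were chosen with earlier results of these data known. Other settings were a pseudocount of 1 or of 64, normalization by quantiles, centring on array medians, only probesets above background on 2 arrays, no variance trend, array weights, only the stages compared, 1 probeset or the mean of probesets per gene, and each array left out. For genes other than Elovl these settings were added after seeing the data.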

Additional observations from a re-analysis of the deposited data

How the results depend on the processing

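The count of Elovl probesets lower in E18.5 than in E16.5 was 5, and 8 under median centring, 1 with no variance trend and 1 to 9 with an array left out (9 without E18.5 replicate 2; 2, 1 and 1 without E16.5 replicates 1, 2 and 3). The count higher in E18.5 was 1, and 2 under quantile normalization. Against E14.5, median centring left 6 higher in E16.5 (11 before), 6 higher in E18.5 (10 before) and 8 lower in E18.5 (5 before); with an array left out these were 11, 8 to 10 and 5 to 6, and 4 to 5 lower in E16.5. Differences called in either setting that changed sign were all against E14.5, under median centring −0.10 for Elovl6 1417404_at in E16.5, and in E18.5 −0.27 and −0.49 for Elovl1 1455994_x_at and 1456530_x_at and −0.013 and −0.28 for Elovl7 1440312_at and 1441891_x_at; the mean of the Elovl6 probesets in E18.5 was 1.52, against −0.26 for 1417404_at. Differences not called also changed sign, those of Elovl2, Elovl3, Elovl4 1451308_at, Elovl6 1442656_at and Elovl7 1424097_at and 1441091_at. The cause was not tested. Calls of all probesets were 58.6% higher for E18.5 against E16.5, and 38.5% under median centring; for E16.5 and E18.5 against E14.5 they were 67.5% and 71.7%, and 33.1% and 32.9%. Over all probesets, E18.5 against E16.5 had 2191 higher and 1551 lower, and 1442 higher under median centring, 816 lower with no variance trend, and 752 to 1000 higher and 456 to 662 lower without any 1 E16.5 array. For E16.5 against E14.5 these were 13579 and 6538, and 7194 and 14535 under median centring. For E18.5 against E14.5 they were 14975 and 5908, with 9518 and 8992 under quantile normalization and 6729 and 13740 under median centring. No paired analysis was possible because the titles carry only sample codes; some digits recur between stages, but nothing in the labels says what they mean or that they pair samples. Signal near background leaves only bounds for Elovl3 and no fold for Elovl2. Against E14.5 it also leaves only bounds for Elovl6 1442656_at and Elovl7 1440354_at.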
